A study of Mus musculus with 10 samples.

Results

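The comparison described here set HOXB4-ER cells that had been without 4-hydroxytamoxifen (TMX) for 4 h against the same kind of cells without it for 1 h. It rests on 4 of the 10 arrays of the study, 2 at each time, paired by the biological replicate number in their titles. Genes were reported where their brightest probe set had a mean log2 signal of 7 or more over all 10 arrays, which held for 5886 of 18193 genes. The cells were adult mouse lineage-negative Sca1+ blood progenitors carrying a retroviral vector that expresses GFP together with HOXB4-ER, the homeobox protein HOXB4 fused to a tamoxifen-responsive receptor domain. They were grown for 14 days in serum-free medium with SCF, FLT3 ligand, IL-11, IL-3 and 10 nM TMX, sorted as GFP+ lineage-negative Sca1+ c-Kit+ (LSK) cells, and kept with TMX for another 12 h before they were divided. The other groups were HOXB4-ER cells kept with 10 nM TMX for 1 h, and cells with unmodified, constantly active HOXB4 (HOXB4const) for 1 h with and without TMX, 2 arrays each. All cells therefore overexpressed a form of HOXB4 and had been grown with TMX. Neither side of the comparison contained TMX, so it compares 2 times after withdrawal. A 4 h culture with TMX was not analysed here, and longer withdrawal and longer culture after the division cannot be told apart.

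HOXB4 is a transcription factor that drives expansion of blood stem and progenitor cells when overexpressed. The HOXB4-ER fusion enters the nucleus when it binds TMX and is held out of it when TMX is removed, so withdrawal switches the factor off. Several of the gene groups below are rapid transcriptional programmes. The p53 protein activates brakes on the cell cycle and killers of the BCL2 family. NF-kB, a factor held in the cytoplasm by IkB proteins, activates its own inhibitors. Growth factor signalling through RAS and ERK switches on feedback inhibitors such as the DUSP and SPRED proteins, and MYC drives genes for ribosome assembly.

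The labelled cell type was checked against its markers. Kit, the SCF receptor used in the sort, had log2 signals of 9.01 and 10.07 at 1 h and of 10.02 and 10.94 at 4 h in replicates 1 and 2. Cd34, a progenitor antigen, had 11.86 and 11.26 at 1 h and 10.78 and 11.30 at 4 h. No probe set was named for Ly6a, which encodes Sca1. The T cell marker Cd3e, the B cell marker Cd79a, the fibroblast marker Col1a1 and the endothelial marker Cdh5 had mean log2 signals of 3.53, 2.83, 3.77 and 2.51 over the 10 arrays. Markers of myeloid cells and platelets were not all dim. Adgre1, the macrophage antigen F4/80, had 8.82 and 5.72 at 1 h and 8.48 and 5.29 at 4 h. Itgam, the myeloid integrin CD11b, had 8.04 and 4.67 at 1 h and 6.57 and 3.34 at 4 h. Both stood higher in replicate 1, and Itgam, whose mean was below 7, was at least 2-fold lower at 4 h in both pairs. Pf4, a platelet chemokine, had a mean of 11.3 over the 10 arrays. The arrays differed in a sign of RNA or amplification quality, the log2 gap between the 3′ and 5′ control probe sets of the same transcript. For Gapdh the gap was 1.01 and 1.48 at 1 h and 1.42 and 3.47 at 4 h in replicates 1 and 2. For Actb it was 1.78 and 2.19 at 1 h and 2.28 and 3.11 at 4 h. Both gaps were larger at 4 h in both pairs, and their part in the differences below was not tested. In bulk RNA, fewer cells of a type and less RNA per cell cannot be told apart, and the labels do not say whether the replicates were separate transductions or animals.

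No probe set passed the test between 4 h and 1 h. limma, fitted to all 10 arrays with the replicate number as a block and adjusted by the Benjamini-Hochberg method over 45037 probe sets, called 0 (0.0%) at an adjusted p of 0.05, with 3246 (7.21%) at an unadjusted p under 0.05. Among the 9014 probe sets with a mean of 7 or more, 171 (1.9%) had an unadjusted p under 0.05, and the smallest adjusted p was 0.487. The median standard error of a difference over the 5886 genes was 0.38 on the log2 scale. This and the ± values below are limma's standard errors from all 10 arrays, and do not measure the spread of the 2 pairs. Genes are therefore described by their values and by a rule with no test: a difference of at least 2-fold in the same direction in both replicate pairs.

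By that rule 26 genes were higher at 4 h, 0.442% of 5886, and 18 were lower, 0.306%. Without the size limit, 2237 genes (38.0%) were higher in both pairs, 1458 (24.8%) were lower in both, and 2191 went in opposite directions. In replicate 1 alone 231 genes were at least 2-fold higher and 109 lower, and in replicate 2 alone 119 were higher and 94 lower. The differences of the replicates correlated across genes (Pearson's r 0.36, Spearman's rho 0.34, over 5886 genes, which are not independent replicates). Both 4 h arrays lay above both 1 h arrays for 1231 genes (20.9%) and below them for 922 (15.7%). This was so for 24 of the 26 higher and 17 of the 18 lower genes, as the rule favours. At the edge of the rule, Mtf2 was just inside with 1.01 in its weaker pair and Rpap2 just outside with 0.97. On the lower side Cd37 was just inside with -1.01 and Ube2s just outside with -0.98.

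The split into higher and lower depended on the scale. As deposited, the median difference over the 5886 genes was 0.08, and 59.1% of the 44 genes picked by the rule were higher. When each array was centred on its median over all probe sets, the median difference was 0.49, and the rule picked 214 higher and 2 lower genes, 99.1% higher. With quantile normalization the median was 0.04, with 25 higher and 21 lower genes. With centring all 36 gene lists had a median difference above 0. Gene groups are therefore described below relative to the median of all genes. Each count of list members higher or lower in both pairs stands against 38.0% and 24.8% of all genes.

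**Figure D1:**
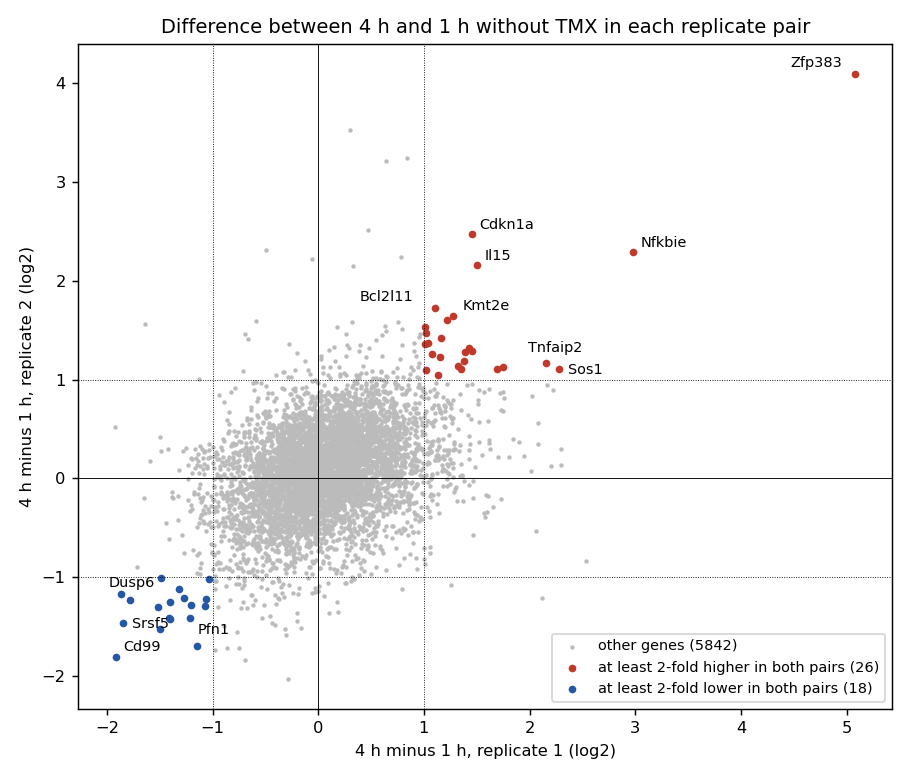
Difference between 4 h and 1 h without TMX (log2) in replicate 1 (horizontal axis) and replicate 2 (vertical axis), 1 point per gene with a mean log2 of 7 or more. Dotted lines mark 2-fold; the 26 red genes were at least 2-fold higher and the 18 blue genes at least 2-fold lower in both pairs. The point of Zfp383, at the upper right, rests on 1 h signals of 2.37 and 3.78, near those of genes the cells should lack, so its position is not a measured size.

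Among the 26 higher genes were Nfkbie, Cdkn1a, Il15, Sos1 and Tnfaip2. The mean over all 10 arrays includes the arrays compared. Without the 4 h arrays, Nfkbie, Il15, Sos1, Jdp2, Snapc1 and Zfp36l1 would have had a mean below 7. The same held for the lower genes Cd99 and Prrc2c without the 1 h arrays. These genes entered the counts only through the time at which they were high. Some list members named below did so too, and their list counts include them. At least Dnajb4, Socs5, Hoxa5 and Ighm would have had a mean below 7 without the 4 h arrays, and Foxm1 without the 1 h arrays. Cdkn1a encodes p21, an inhibitor of cyclin-dependent kinases. Its log2 signal was 8.0 and 6.80 at 1 h and 9.45 and 9.28 at 4 h. The mean difference of the 2 pairs was 1.96 ± 0.50 (limma SE from all 10 arrays, 3.90-fold, limma adjusted p 0.557). Both 4 h arrays also lay above the arrays with TMX, at 7.51 and 7.13. Nfkbie encodes IkB epsilon, an inhibitor of NF-kB. It had 6.86 and 5.36 at 1 h, 9.84 and 7.65 at 4 h, and 7.76 and 6.50 with TMX. The difference between the times was 2.63 ± 0.78 (6.21-fold; limma adjusted p 0.598), and the 4 h arrays did not overlap the 1 h arrays.

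Il15, a cytokine for lymphocytes and natural killer cells, had the smallest adjusted p among the 44 genes. It had 6.04 and 5.96 at 1 h, 7.55 and 8.12 at 4 h, and 6.90 and 7.05 with TMX, a difference of 1.83 ± 0.39 (limma adjusted p 0.491). Its 1 h arrays lay below, and its 4 h arrays above, both arrays with TMX. Sos1, an exchange factor that activates RAS, had 5.75 and 7.07 at 1 h, 8.03 and 8.18 at 4 h, and 6.67 and 7.44 with TMX. In each pair the array with TMX lay between the times, and the difference was 1.70 ± 0.41. Tnfaip2, a gene induced by TNF, had 7.71 and 6.93 at 1 h and 9.87 and 8.11 at 4 h, a difference of 1.66 ± 0.49.

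Zfp383, which encodes a zinc finger protein, had signals of 2.37 and 3.78 at 1 h, 7.45 and 7.88 at 4 h, and 8.24 and 7.41 with TMX. The 1 h signals were near those of the lymphoid, fibroblast and endothelial markers given above, so the size of its difference was not measured. The gene entered the counts through its level in the other groups. The 1 h arrays stood apart from the other HOXB4-ER arrays, and the 4 h mean was 0.16 below the mean with TMX. It was the exception among the 26 genes: the other 25 were higher at 4 h than with TMX.

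Genes for transcription and chromatin were also among the higher ones. Kmt2e, which encodes a protein related to histone methyltransferases, had 9.03 and 8.86 at 1 h and 10.31 and 10.50 at 4 h, a difference of 1.46 ± 0.41, while another of its probe sets differed by 0.23. Jdp2, a repressor of the AP-1 family, had 6.50 and 6.87 at 1 h and 8.24 and 8.0 at 4 h, a difference of 1.44 ± 0.39. Etv3, an ETS-family repressor, had 8.22 and 6.67 at 1 h and 9.61 and 7.95 at 4 h. Here the times overlapped across replicates, although the difference was 1.39 in replicate 1 and 1.28 in replicate 2. Zfp36l1 and Tob2 encode proteins that promote mRNA decay. Zfp36l1 had 7.37 and 6.24 at 1 h and 8.82 and 7.53 at 4 h, a difference of 1.37 ± 0.49. Tob2 had 7.12 and 7.18 at 1 h and 8.44 and 8.31 at 4 h, a difference of 1.23 ± 0.39.

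Bcl2l11 encodes BIM, a killer protein of the BCL2 family. It had 7.59 and 6.32 at 1 h, 8.70 and 8.04 at 4 h, and 7.74 and 6.76 with TMX, a difference of 1.42 ± 0.42. Arrdc3, an adaptor of the arrestin family, had 6.64 and 6.88 at 1 h and 7.86 and 8.48 at 4 h, a difference of 1.41 ± 0.42. The 3 remaining genes of the 15 largest were Synj1, a phosphoinositide phosphatase (1.40 ± 0.48), Kifbp, a kinesin-binding protein (1.37 ± 0.41), and the receptor gene P2ry10 (1.29 ± 0.72). Ndrg1, described with the hypoxia genes, and Tob2 were the list members among the rest of the 26. The others were Snapc1, Aasdh, Cd300lb, Rreb1, Chaserr, Zfp397, Mtf2, Pnrc1 and Rhoq, with mean differences of 1.06 to 1.29. Cd300lb was the second gene whose times overlapped.

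The 18 lower genes had mean differences of -1.02 to -1.86, and the RNA quality gap named above moved in the same arrays. Dusp6, the ERK phosphatase that ERK signalling itself induces, had 9.52 and 9.01 at 1 h, 7.74 and 7.77 at 4 h, and 9.18 and 8.94 with TMX. The difference was -1.51 ± 0.59 (2.84-fold lower, limma adjusted p 0.680), and the 4 h arrays lay below all others of the HOXB4-ER cells. Such levels were not particular to 4 h of withdrawal. HOXB4const cells at 1 h had 9.32 and 7.75 with TMX and 9.20 and 7.34 without, in replicates 1 and 2. Cd99, a surface glycoprotein of leukocytes, had the largest difference, -1.86 ± 0.54, with 8.35 and 8.0 at 1 h and 6.44 and 6.19 at 4 h. With TMX it had 7.06 and 6.01, so its 4 h mean was only 0.22 below the mean with TMX, while its 1 h mean was 1.64 above it. Cd37, a leukocyte tetraspanin, had 9.23 and 7.69 at 1 h and 7.74 and 6.68 at 4 h, a difference of -1.25 ± 0.34. It was the lower gene whose times overlapped.

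RNA-binding and cytoskeletal genes followed. Srsf5, a splicing factor, had 10.72 and 8.89 at 1 h and 8.87 and 7.43 at 4 h, a difference of -1.66 ± 0.59. Hnrnpl, a splicing regulator, had 10.43 and 9.56 at 1 h and 9.02 and 8.15 at 4 h, with -1.41 in each pair. Pfn1, profilin, which supplies actin monomers to growing filaments, had 11.82 and 10.74 at 1 h, 10.61 and 9.33 at 4 h, and 11.15 and 10.26 with TMX. Its difference was -1.31 ± 0.46. For all 3 genes the 4 h array lay below the 1 h array of its own pair, while replicate 1 stood above replicate 2 at each time. On the HOXB4const array without TMX of replicate 2, Srsf5, Hnrnpl and Pfn1 had 7.10, 7.58 and 8.94, below both 4 h arrays. Replicate 1 of that group had 10.40, 10.38 and 11.26. The Gapdh gap was 3.98 on the former array and 1.28 on the latter, and its part was not tested.

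Genes for transport and nutrient sensing were in the same group. Lamtor4, a subunit of the Ragulator complex that brings mTORC1 to lysosomes, had 8.34 and 7.90 at 1 h and 6.85 and 6.37 at 4 h, a difference of -1.51 ± 0.55. Slc29a1, a nucleoside transporter, had 8.68 and 7.98 at 1 h and 7.27 and 6.56 at 4 h, a difference of -1.42 ± 0.63. Kcnj11, a subunit of the ATP-sensitive potassium channel, had 9.69 and 8.72 at 1 h and 8.18 and 7.42 at 4 h, a difference of -1.41 ± 0.40. Slc16a6, a transporter of the monocarboxylate family, differed by -1.25 ± 0.39. The other genes of the 15 largest were Ssbp4 (-1.52 ± 0.73), 2410002F23Rik (-1.42 ± 0.51), Bzw2 (-1.33 ± 0.75), Ifrd2 (-1.24 ± 0.53) and the phosphatase gene Ppp5c (-1.22 ± 0.39). Tnfrsf21, Prrc2c and Ppp6r1 completed the 18. All 18 had a lower mean at 4 h than with TMX, by at least 2-fold in 6 of them, among these Slc16a6, Dusp6, Srsf5 and Hnrnpl.

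**Figure D2:**
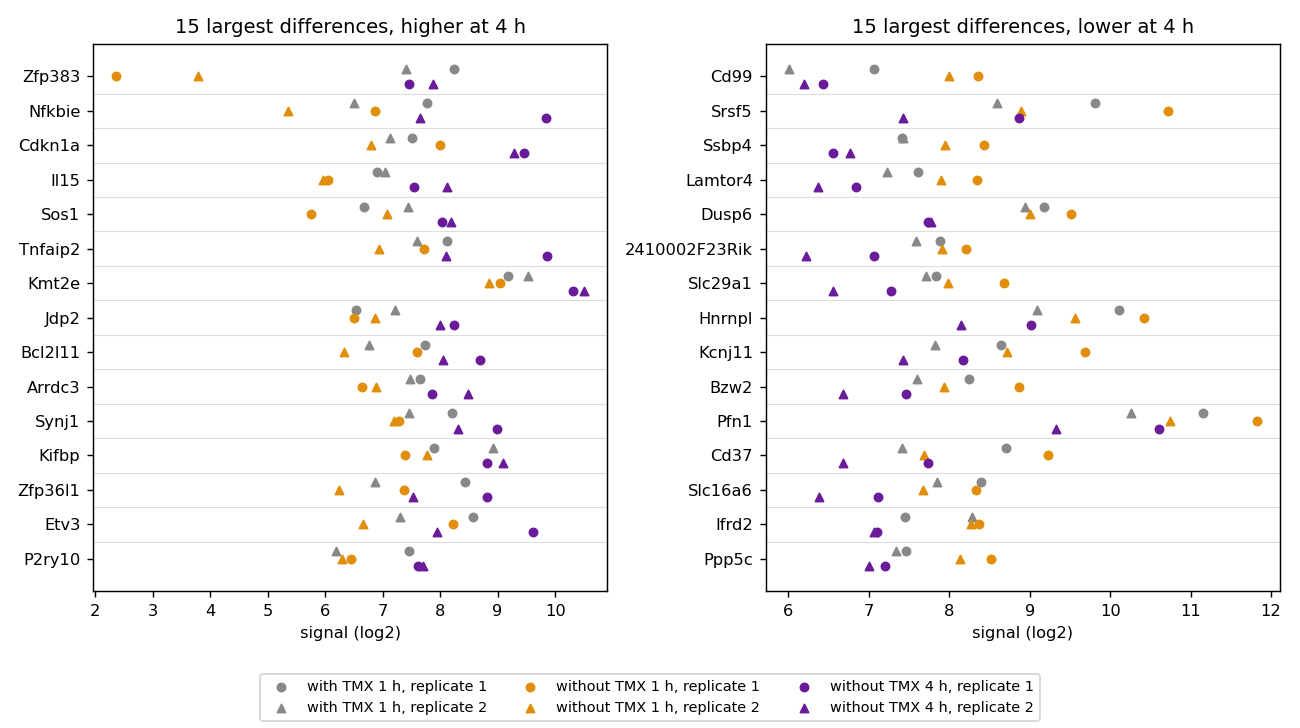
Log2 signal of the 15 genes with the largest higher and the 15 with the largest lower difference at 4 h (1 row per gene), on each HOXB4-ER array: grey with TMX 1 h, orange without TMX 1 h, purple without TMX 4 h, circles replicate 1, triangles replicate 2. The purple points lie to the right of the orange ones of the same shape on the left panel and to their left on the right panel; for Zfp383 the 1 h arrays, at 2.37 and 3.78, stand apart from the rest.

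Several probe sets of a gene did not always share a direction. Of 60 lower probe sets with 1 gene symbol and a mean of 7 or more, 42 were not their gene's brightest and so are not among the 18 genes. Of 31 higher ones, 5 were not the brightest. The 2333 probe sets that were not the brightest of their gene had a median difference of -0.04, against 0.08 for the brightest. Among 1677 genes with several such probe sets, 858 had probe sets that differed in opposite directions. Of the 44 genes this touched Mtf2, whose probe sets ranged from -0.29 to 1.18. Of the list members named below it touched Polr1c, Ero1a, Adam17, Hmgcs1, Mcl1, Ncl, Nfkbia, Csnk1d, Ccng1 and Ccr2, for which the value of the brightest probe set is given.

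The same 2-fold rule picked far fewer genes in the comparisons by TMX at 1 h. HOXB4-ER cells without against with TMX at 1 h gave 1 higher (0.017%) and 3 lower (0.051%) of 5886 genes, in a comparison that uses the same 1 h arrays without TMX. HOXB4const cells without against with TMX gave 0 higher (0.0%) and 0 lower (0.0%). The difference between these counts was not tested. Because the rule used both times, the place of the TMX arrays beside the 44 genes is a description. The 4 h mean was beyond the TMX mean in 25 of 26 higher genes, by at least 2-fold in 9. The 1 h mean lay on the other side of the TMX mean in 24 of 26 higher and 16 of 18 lower genes, by at least 2-fold in 2 and 1.

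Genes of the p53 pathway stood above the median of all genes. Of 27 list members on the array, 12 had a mean of 7 or more. In both pairs 10 of these were higher at 4 h and 1 was lower, against 38.0% and 24.8% of all genes, and 0 passed the test. Their median difference was 0.52, which is 0.44 above that of all genes, and 0.54 and 0.34 above it in replicates 1 and 2. The median was 0.45 above all genes after quantile normalization.

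The members with the largest differences restrain the cell cycle or promote death. Trp53inp1, an inducer of cell cycle arrest and death, had 7.98 and 6.83 at 1 h and 8.83 and 10.08 at 4 h, a difference of 2.05 ± 0.75, with 3.25 in replicate 2 and 0.84 in replicate 1. Ccng1, cyclin G1, had 8.40 and 9.33 at 1 h and 9.97 and 10.20 at 4 h, a difference of 1.22 ± 0.44. Another of its probe sets did not share this. Pmaip1, which encodes the killer protein NOXA, had 8.87 and 8.30 at 1 h and 10.09 and 9.10 at 4 h, a difference of 1.01 ± 0.48. Sesn1, a stress-induced brake on mTORC1, differed by 0.75 ± 0.40, and Perp, a membrane protein linked to cell death, by 0.64 ± 0.34. The p53 antagonists Mdm2 and Mdm4 differed by 0.33 and 0.40. At the other end were Aen (-0.09) and Trp53i11 (-0.23).

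The promoter of Cdkn1a is shown because it was the list's 1 gene at least 2-fold higher in both pairs. RefSeq (GRCm38.p6) gave 2 windows for the gene, on the forward strand of chromosome 17. The 250 bases before the upstream start, chr17:29090729-29090978, are printed 5′ to 3′, with matches to the p53 decamer, the core of a p53 response element, in capitals.

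Cdkn1a: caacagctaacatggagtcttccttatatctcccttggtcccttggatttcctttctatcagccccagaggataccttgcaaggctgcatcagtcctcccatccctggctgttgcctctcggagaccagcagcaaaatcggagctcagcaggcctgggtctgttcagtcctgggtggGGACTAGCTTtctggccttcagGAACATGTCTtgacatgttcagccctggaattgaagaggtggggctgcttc

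The decamer reads the same pattern on both strands, so a single search covered both. The window above held 2 matches, GGACTAGCTT and GAACATGTCT, the first beginning 73 bases before the start, and the window before the other start held 0. A match was found in 2341 of 32851 windows of 250 bases (7.13%). It was found for 338 of 4878 genes with a mean of 7 or more that had a window (6.93%), and for 7 of the 9 listed p53 genes that had one. These were Cdkn1a, Ccng1, Sesn1, Mdm2, Ei24, Ppm1d and Aen, so the matches included genes with small or negative differences. A match is a description of the sequence, not of binding.

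The TNF and NF-kB list had the largest median of the 28 pathway lists. Of 16 measured members, 12 were higher and 1 lower in both pairs, and 0 passed the test. The median difference was 0.71, which is 0.63 above that of all genes, and 0.78 and 0.48 above it in replicates 1 and 2. Inhibitors of the pathway were among the higher members: beside Nfkbie these were Tnip1 (1.12 ± 0.54), Tnfaip3, which encodes A20 (0.74 ± 0.54), and Nfkbia, which encodes IkB alpha (0.51 ± 0.61). Tnfaip3 had 8.75 and 6.35 at 1 h and 9.15 and 7.42 at 4 h, so the replicates lay farther apart than the times.

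The TNF receptors differed from each other: Tnfrsf1a went in opposite directions, with -0.15 and 0.48 in replicates 1 and 2. Tnfrsf1b had 8.48 and 7.57 at 1 h and 10.23 and 8.45 at 4 h, a difference of 1.31 ± 0.41, with the times overlapping across replicates. Birc2, an inhibitor of apoptosis, had 8.25 and 7.64 at 1 h and 9.0 and 9.22 at 4 h, a difference of 1.17 ± 0.48, and its relative Birc3 differed by 0.93 ± 0.46. Icam1, an adhesion molecule, had 8.64 and 7.31 at 1 h and 10.26 and 7.70 at 4 h. Its difference was 1.62 in replicate 1 and 0.39 in replicate 2. Rela, a subunit of NF-kB itself, was the member lower in both pairs (-0.32). Ccl3, a chemokine, went in opposite directions, with -0.59 and 1.60.

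**Figure D3:**
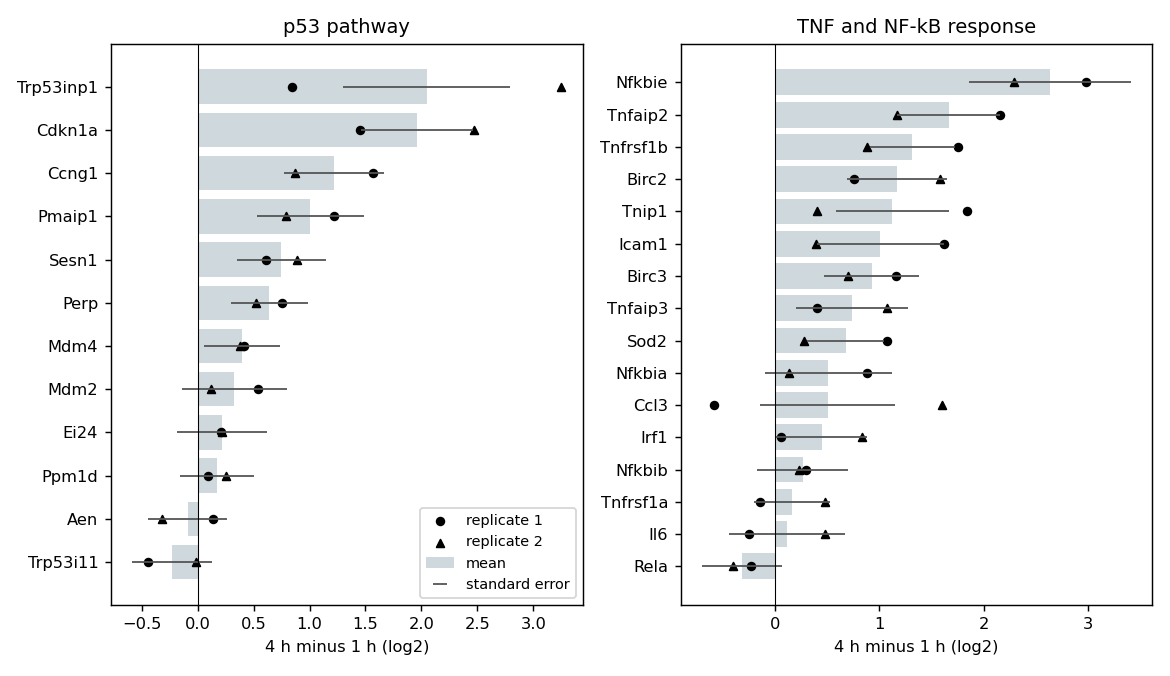
Difference between 4 h and 1 h without TMX (log2) for the 12 measured p53 pathway genes and the 16 measured TNF and NF-kB response genes. Bars are the mean of both pairs, lines the limma standard error, circles replicate 1 and triangles replicate 2; Trp53inp1 (2.05) and Cdkn1a (1.96) lead the left panel and Nfkbie (2.63) the right one.

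The list of hypoxia response and glycolysis genes also had a median above that of all genes, but its glycolytic enzymes were mixed. Of 25 measured members 15 were higher and 2 lower in both pairs, and 0 passed the test. The median was 0.25 above that of all genes, and 0.25 and 0.09 above it in replicates 1 and 2. Ndrg1, a hypoxia-induced differentiation gene, had 7.15 and 6.47 at 1 h and 8.23 and 7.73 at 4 h, a difference of 1.17 ± 0.35. Slc2a1, the glucose transporter GLUT1, had 8.21 and 8.53 at 1 h and 9.95 and 9.21 at 4 h, a difference of 1.21 ± 0.45. Kdm3a, a histone demethylase that HIF induces, had 8.37 and 8.10 at 1 h and 9.31 and 9.23 at 4 h, a difference of 1.04 ± 0.33. Bnip3, a mitophagy and death gene, differed by 2.30 in replicate 1 and 0.30 in replicate 2. Hif1a itself differed by 0.66 ± 0.38. Of the glycolytic enzymes, Hk2, Pfkp, Aldoc and Pgk1 differed by 0.75, 0.70, 0.32 and 0.15. Hk1, Pfkl, Pfkfb3, Aldoa, Tpi1, Pgam1, Pkm and Ldha differed by -0.02, -0.02, 0.07, -0.11, 0.04, -0.18, -0.27 and -0.11, none above the median of all genes.

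Stress genes of the endoplasmic reticulum and of amino acid supply were mixed. Of 27 measured members of the amino acid and integrated stress response, 15 were higher and 7 lower in both pairs. The median was 0.06 above that of all genes, and 0.18 and 0.04 above it in replicates 1 and 2. Herpud1, an endoplasmic reticulum stress protein, had 8.56 and 8.07 at 1 h, 9.51 and 9.50 at 4 h, and 8.22 and 8.25 with TMX, a difference of 1.19 ± 0.35. Cebpb, a stress and inflammation factor, had 8.15 and 7.15 at 1 h and 9.39 and 7.91 at 4 h, a difference of 1.00 ± 0.42. Of 27 chaperone genes of the endoplasmic reticulum and XBP1 branch, 8 were higher and 6 lower. Ero1a, an oxidase of protein folding, differed by 0.91 ± 0.39 and Calr, a lectin chaperone, by -0.70 ± 0.40.

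Among 18 heat shock chaperones with a mean of 7 or more, 4 were higher and 4 lower in both pairs. The count leaves out the inducible HSP70 genes, whose mean was below 7 but whose 4 h signals stood far above those at 1 h: Hspa1b had 3.92 and 4.54 at 1 h and 8.83 and 9.28 at 4 h. Dnajb4, a partner of HSP70, had 6.82 and 6.51 at 1 h and 7.61 and 8.02 at 4 h, a difference of 1.15 ± 0.41. Hspa8, the constitutive HSP70, differed by -0.76 ± 0.44, with -1.39 in replicate 1 and -0.14 in replicate 2. Of 17 genes of the NRF2 oxidative stress response 7 were higher and 4 lower. Nfe2l2, which encodes NRF2, had 8.83 and 8.69 at 1 h and 9.83 and 9.50 at 4 h, a difference of 0.91 ± 0.39, and Gpx1, a glutathione peroxidase, differed by -0.74 ± 0.40.

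Of the feedback inhibitors of ERK and ETV factors, 9 were measured; 1 was higher and 4 lower in both pairs, and 0 passed the test. The list median was 0.32 below that of all genes, and 0.58 and 0.33 below it in replicates 1 and 2. Beside Dusp6 the lower members were Spred2, Rasa2 and Etv5. Spred2, an inhibitor of RAS signalling, had 8.64 and 8.38 at 1 h, 7.45 and 7.65 at 4 h, and 8.34 and 8.61 with TMX, a difference of -0.96 ± 0.35. Rasa2, which switches RAS off, had 8.75 and 8.82 at 1 h, 7.80 and 8.07 at 4 h, and 9.20 and 9.32 with TMX, a difference of -0.85 ± 0.40. Etv5, an ETS factor downstream of ERK, had 6.94 and 7.66 at 1 h and 6.40 and 6.56 at 4 h, a difference of -0.82 ± 0.40. In each of these 4 genes both 4 h arrays lay below both 1 h arrays, as in 922 (15.7%) of all 5886 genes. Their choice as members lower in both pairs favours this. Both pairs were lower also when quantile normalized or centred, with centred differences as small as -0.18 for Etv5 in replicate 1.

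The MYC network and ribosome biogenesis lay below the median of all genes. In the MYC, MAX and MXD network 1 of 17 measured genes was higher and 12 were lower in both pairs, against 38.0% and 24.8% of all genes, and 0 passed the test. The median was 0.29 below that of all genes, and 0.27 and 0.25 below it in replicates 1 and 2. Myc itself differed by -0.54 ± 0.59, with -0.12 in replicate 1 and -0.96 in replicate 2. Cdk4, a kinase of the G1 phase and a MYC target, had 10.40 and 10.23 at 1 h and 9.64 and 9.33 at 4 h, a difference of -0.83 ± 0.42. Tfrc, the transferrin receptor, had 9.97 and 10.64 at 1 h and 9.62 and 9.48 at 4 h, a difference of -0.75 ± 0.40. Mga, a MAX partner that opposes MYC, was the higher member, with 0.68 ± 0.40. Mnt and Mxi1, MAX partners that also oppose MYC, were among the 12 lower members, with -0.33 and -0.055. The 12 therefore mix MYC targets with antagonists of MYC.

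In ribosome biogenesis 3 of 37 measured genes were higher and 20 lower in both pairs, and 0 passed the test. The list had the lowest median of the 36 lists, 0.37 below all genes, and 0.27 and 0.33 below in replicates 1 and 2. Ppan, needed for large subunit assembly, had 8.16 and 8.82 at 1 h and 7.54 and 7.54 at 4 h, a difference of -0.95 ± 0.49. Ncl, nucleolin, differed by -0.73 ± 0.42. Polr1c, a subunit of RNA polymerases I and III, had 8.28 and 8.98 at 1 h and 8.95 and 9.70 at 4 h by its brightest probe set, a difference of 0.70, while another of its probe sets differed by -0.21. With arrays centred on their medians, 14 of the 37 genes were higher and 4 lower in both pairs, and in the MYC network 8 were higher and 2 lower. Centring shifts all genes of an array alike, so it cannot move a list relative to all genes. After quantile normalization the ribosome biogenesis median was 0.38 and the MYC network median 0.27 below that of all genes.

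Cytosolic ribosomal proteins differed between the replicates. The median of 31 measured genes was 0.81 below that of all genes in replicate 1 and 0.11 above it in replicate 2. Rplp0 had 14.11 and 13.24 at 1 h and 12.52 and 13.41 at 4 h. After quantile normalization the median stood 0.04 below that of all genes. The mean log2 signal of the spike-in controls was 12.2 on the 1 h array of replicate 1 and 9.15 on its 4 h partner, and its part in this was not tested. Of 36 proteasome subunits 9 were higher and 18 lower in both pairs, or 26 and 1 with arrays centred, with a median 0.18 below that of all genes. Psmd7, a subunit of the regulatory particle, had 8.88 and 8.25 at 1 h and 7.88 and 7.33 at 4 h, a difference of -0.96 ± 0.54. Of 48 oxidative phosphorylation subunits 19 were higher and 14 lower, and their median equalled that of all genes to within 0.01. Cox8a, a subunit of cytochrome oxidase, differed by -0.84 ± 0.46.

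Among 17 D cyclins, CDKs and CDK inhibitors, 7 were higher and 8 lower in both pairs, and the median was 0.24 below that of all genes (0.01 below after quantile normalization). The D cyclins, which drive entry into the cycle, were lower in both pairs as deposited, centred and quantile normalized. As deposited they differed by -0.80 ± 0.44 for Ccnd1, -0.53 ± 0.41 for Ccnd2 and -0.75 ± 0.52 for Ccnd3. With arrays centred some differences were close to none. In replicates 1 and 2 they were then -0.05 and -0.71 for Ccnd1, -0.17 and -0.07 for Ccnd2, and -0.64 and -0.03 for Ccnd3. The 7 higher members were Cdkn1a, Ccng1, Ccng2, the S-phase cyclin gene Ccne2 (0.51 ± 0.68), and Rb1, Rbl1 and Rbl2, which encode the retinoblastoma protein and its relatives (0.49, 0.29 and 0.62). Ccng2, a cyclin linked to cell cycle arrest, had 8.42 and 6.97 at 1 h and 8.89 and 9.49 at 4 h, a difference of 1.49 ± 0.61. Of 37 genes of DNA replication 8 were higher and 8 lower. Chaf1b, a histone chaperone subunit, differed by -0.80 ± 0.40 and Pola2, a subunit of DNA polymerase alpha, by -0.71 ± 0.46.

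Of 34 mitosis genes 19 were higher and 7 lower in both pairs, with a median 0.12 above that of all genes. Hmmr, a spindle protein, had 7.62 and 8.42 at 1 h and 8.35 and 9.37 at 4 h, a difference of 0.84 ± 0.37. Foxm1, the transcription factor of the G2 phase, had 7.71 and 7.64 at 1 h and 6.93 and 6.98 at 4 h, a difference of -0.72 ± 0.36. Of 10 BCL2 family genes 5 were higher and 2 lower. Bcl2l11, Bnip3 and Pmaip1, all killers, had the largest differences, and the survival gene Mcl1 differed by 0.54 ± 0.44.

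Stem cell transcription factors stood slightly above all genes: 14 of 25 were higher and 4 lower in both pairs. The median was 0.10 above that of all genes, and 0.32 and 0.08 above it in replicates 1 and 2. Ikzf2, the zinc finger factor Helios, had 7.29 and 7.73 at 1 h, 9.05 and 8.55 at 4 h, and 7.74 and 8.01 with TMX, a difference of 1.29 ± 0.42. Foxo3, a factor of stem cell quiescence, had 8.13 and 9.08 at 1 h and 9.06 and 10.33 at 4 h, a difference of 1.08 ± 0.45. Tal1, a master regulator of blood stem and red cells, had 8.62 and 9.12 at 1 h and 9.31 and 9.94 at 4 h, a difference of 0.75 ± 0.34. Cebpa, the driver of the granulocyte fate, differed by -0.82 ± 0.80.

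Of 17 surface receptors 4 were higher and 4 lower in both pairs. Kit was higher by 1.01 and 0.86 in replicates 1 and 2, a mean of 0.94 ± 0.50 (1.91-fold; limma adjusted p 0.754). Ptprc, the common leukocyte antigen CD45, differed by 0.66 ± 0.40. All 5 measured Hox genes and TALE cofactors had positive mean differences, from 0.18 for Hoxa9 to 0.65 for Pbx2, and 4 of them were higher in both pairs. Hoxa5 had 6.41 and 7.62 at 1 h and 7.02 and 7.73 at 4 h, a difference of 0.36 ± 0.40, and its direction depended on single arrays. The probe set of Hoxb4 was dim, with 6.12 and 5.78 at 1 h and 5.62 and 4.37 at 4 h, a difference of -0.96 ± 0.49 (limma adjusted p 0.744). Whether it detects the vector transcript is not known here. Esr1, the mouse estrogen receptor gene, had 5.88 and 5.07 at 1 h and 6.26 and 5.94 at 4 h.

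Signalling lists with members on both sides made up most of the rest. Of 18 Wnt and Notch genes 11 were higher and 3 lower, with a median 0.24 above that of all genes. Dvl1, a transducer of Wnt signals, had 6.99 and 7.35 at 1 h and 7.82 and 8.04 at 4 h, a difference of 0.76 ± 0.38, and Adam17, the protease that releases TNF and cuts Notch, differed by 0.62 ± 0.33. Of 20 JAK-STAT genes 12 were higher and 3 lower. Socs5, a suppressor of cytokine signalling, had 6.09 and 7.08 at 1 h and 7.43 and 7.94 at 4 h, a difference of 1.10 ± 0.39, and Ptpn2, a phosphatase of JAK kinases, differed by 0.67 ± 0.37. The STAT5 target Socs2 differed the other way, by -1.16 ± 0.76.

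In the TGF-beta and BMP list 6 of 15 measured genes were higher and 6 lower in both pairs. Tgfb1, the ligand, had 11.51 and 10.93 at 1 h, 10.36 and 9.98 at 4 h, and 10.53 and 10.60 with TMX, a difference of -1.05 ± 0.47. Bambi, a decoy receptor, had 7.37 and 7.15 at 1 h and 6.37 and 6.40 at 4 h, a difference of -0.88 ± 0.36. Of 18 interferon response genes 5 were higher and 8 lower, or 11 and 1 with arrays centred. The median was 0.29 below that of all genes, and 0.21 and 0.09 below it in replicates 1 and 2. Bst2, an antiviral membrane protein, differed by -0.74 ± 0.34 and Irf2, a regulator of interferon genes, by 0.70 ± 0.39. Of 13 immediate early genes 5 were higher and 4 lower. Fos, an AP-1 subunit, differed by -0.06 in replicate 1 and 2.22 in replicate 2.

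Of 20 Polycomb and trithorax regulators 9 were higher and 5 lower (45% and 25%, against 38.0% and 24.8% of all genes), and Kmt2e led them. Of 17 cholesterol synthesis genes 3 were higher and 3 lower. Hmgcs1, an early enzyme of the pathway, had 9.94 and 10.47 at 1 h and 11.03 and 11.00 at 4 h, a difference of 0.81 ± 0.38. Fdps, which makes farnesyl diphosphate, had 8.72 and 8.26 at 1 h and 7.97 and 6.54 at 4 h, a difference of -1.24 ± 0.56. The circadian list had 4 measured genes, 3 of them higher, led by Csnk1d (0.37 ± 0.35).

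**Figure D4:**
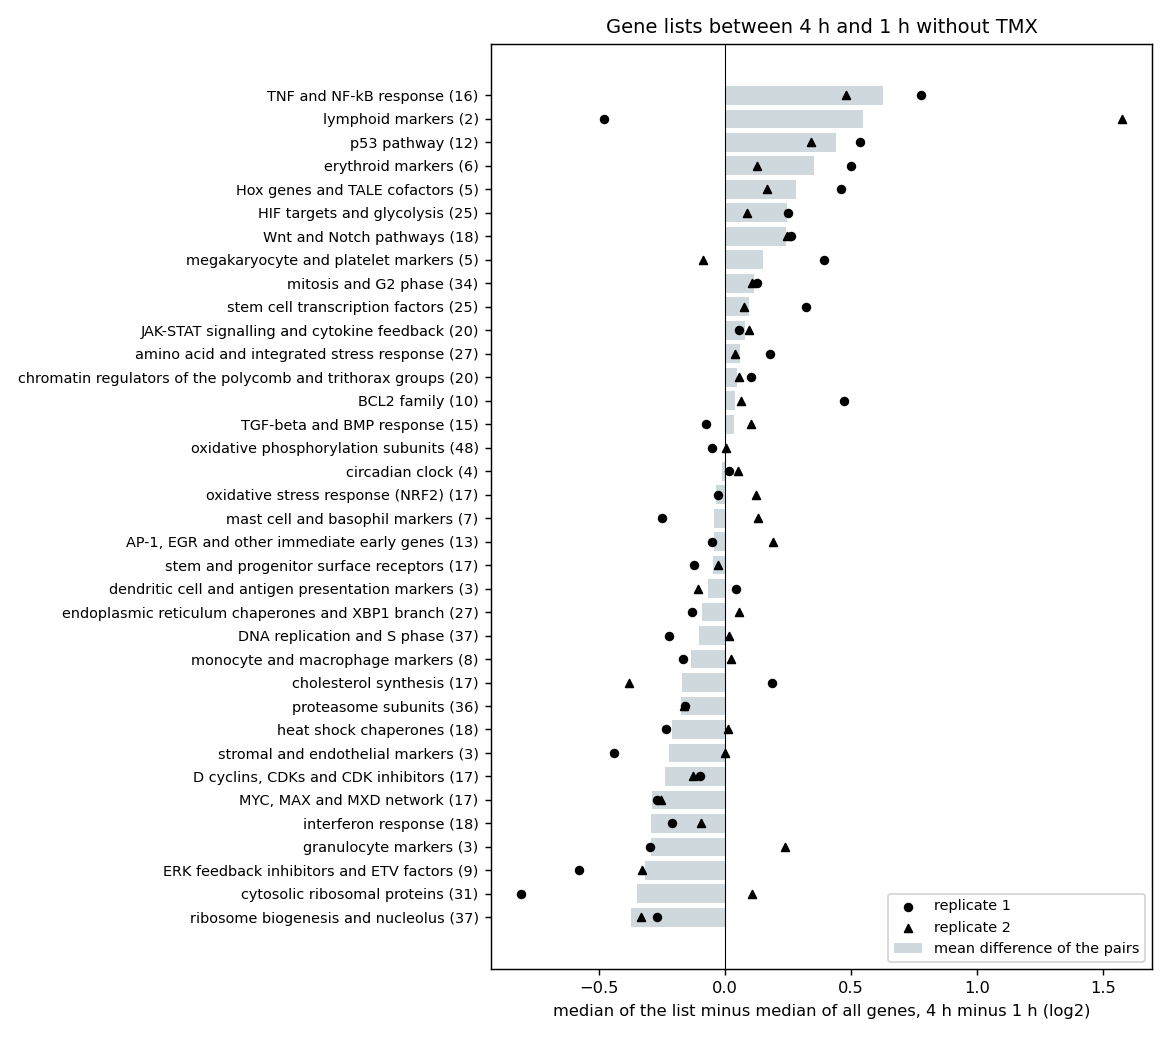
Median difference between 4 h and 1 h without TMX of each of the 36 gene lists, minus the median of all 5886 genes (log2), with the number of measured members in brackets. Bars use the mean difference of both pairs, circles replicate 1 and triangles replicate 2; the TNF and NF-kB (0.63) and p53 (0.44) lists stand high and ribosome biogenesis (-0.37) lowest, while lists such as cytosolic ribosomal proteins differ between replicates.

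Markers of mature cells were compared by their summed signal. The summed linear signal of each of 8 marker lists at 4 h was 0.80 to 1.24 times that at 1 h, in both pairs. The monocyte list summed to 19330 at 1 h and 15400 at 4 h in replicate 1, and to 1712 and 1655 in replicate 2, so that the replicates stood farther apart than the times. Its brightest member Lyz2, lysozyme, had 13.07 and 9.06 at 1 h and 12.12 and 8.73 at 4 h. Among the erythroid markers 4 of 6 were higher and 2 lower in both pairs. Fech, the last enzyme of heme synthesis, differed by 0.54 ± 0.36. Of 3 granulocyte markers 0 were higher and 1 was lower in both pairs. Mpo, the granule enzyme myeloperoxidase, had 13.26 and 12.50 at 1 h and 12.48 and 12.84 at 4 h, in opposite directions. Itga2b, the platelet integrin also found on early progenitors, differed by -0.76 ± 0.59. Of 3 stromal and endothelial markers 1 was higher and 1 lower. Pecam1, shared by endothelial and blood cells, had 7.72 and 7.09 at 1 h and 6.61 and 6.18 at 4 h, a difference of -1.01 ± 0.62. The mast cell markers (2 higher, 1 lower of 7), monocyte markers (3 and 3 of 8), dendritic cell markers (1 and 0 of 3), megakaryocyte markers (2 and 1 of 5) and lymphoid markers (1 and 1 of 2) gave 0 genes at least 2-fold apart in both pairs.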

How the data were processed

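Per the labels' protocols, RNA of 10 populations was amplified linearly for Affymetrix whole-genome mouse arrays. The values used are the authors' deposited log2 signals. The sources used here do not give the scaling. GCOS and RMA are named in the submitters' processing notes without roles. The arrays' number limits the precision. Values were used as deposited. limma 3.58.1 in R 4.3.3 (lmFit, eBayes without trend) was fitted to all 10 arrays with 5 groups and the replicate number as a block, two-sided, with Benjamini-Hochberg adjustment over 45037 probe sets; 64 control probe sets were left out. The residual degrees of freedom were 4 and the prior ones 1.82. The numbers paired the samples: differences between replicates correlated in 10 of 10 pairs of groups (0.36 to 0.73, over 9014 probe sets). The script was tested on simulated data.

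Probe sets were named through GEO's platform annotation: 34945 had 1 symbol, 932 several and 9160 were not listed. Entrez identifiers of 34741 matched RefSeq. A gene was represented by its brightest probe set. Named genes were the 15 largest differences in each direction among genes at least 2-fold apart in both pairs, list members meeting that rule or otherwise the 2 with the smallest p, and Hoxb4, Esr1 and Kit. Other genes named were chosen after their values were seen. The comparison and the 36 lists (28 pathways, 8 cell types) were chosen with earlier results of these data known. The alternatives tried were other blocks, scalings, filters and probe set rules, and each array left out.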

Additional observations from a re-analysis of the deposited data

How the results depend on the processing

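With no replicate block, with blocks within each construct, on the 4 or 6 HOXB4-ER arrays, with arrays centred or quantile normalized, on probe sets with a mean of 7 or more alone, and without each array in turn, limma called 0 probe sets at an adjusted p of 0.05; the paired and unpaired fits gave the same count. An intensity trend gave 4 calls (2 Hspa1b probe sets, a dim one of Ccr2 and an unlisted one), and adding 16 to the signal gave 1 (Hspa1b). Fits joining the filter with the trend or quantile normalization with no block (0 calls each) and the single-pair counts were added after seeing the data. The 26 higher and 18 lower genes at least 2-fold apart in both pairs became 214 and 2 with arrays centred, 10 and 5 with no pairing, 6 and 6 at a mean of 8 or more, 44 higher at a mean of 6 or more, and 119 to 231 higher and 94 to 109 lower in single pairs. In the fit without single arrays, 22 to 26 of the 26 and 12 to 18 of the 18 stayed 2-fold apart: 23 and 12 without 4 h replicate 1, 22 and 14 without 1 h replicate 2, and 25 and 18 without 4 h replicate 2. Of 1320 alternatives for named genes, 1303 kept the direction and 17 reversed, in 10 genes. With arrays centred the reversed values were 0.025 for Ccr2, 0.053 for Fcer1g, 0.37 for H2-DMa, 0.20 for Mpo and 0.088 for Prtn3; quantile normalization gave 0.11 for Mpo; the mean of probe sets gave 0.018 for Ccr2 and -0.10 for Csnk1d. Without single arrays the ranges were -0.36 to 0.44 for Flt3, -0.33 to 0.24 for H2-DMa, -0.043 to 0.76 for Hoxa5, -0.30 to 4.13 for Ighm, -0.67 to 0.24 for Mpo and -1.41 to 0.072 for Nkg7. Of 36 lists 32 kept their side of the median of all genes under quantile normalization; centring cannot move a list relative to it. The cause of these shifts was not tested. With 2 arrays a group, differences near the median standard error of 0.38 could not be resolved. Larger ones did not pass the main limma fit either, where the smallest adjusted p at a mean of 7 or more was 0.487.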

Other observations

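Genes below the mean of 7 were left out of the counts, and this removed the inducible HSP70 genes, whose signals were below 7 on every array of the other groups. The brightest probe set of Hspa1b, an inducible heat shock chaperone, had log2 signals of 3.92 and 4.54 at 1 h, 8.83 and 9.28 at 4 h, and 4.54 and 4.68 with TMX. Its mean difference between the times was 4.82 ± 0.79 (limma SE from all 10 arrays, limma adjusted p 0.441). Another Hspa1b probe set had 4.57 and 4.54 at 1 h and 8.75 and 9.41 at 4 h, a difference of 4.53 ± 0.41 (limma adjusted p 0.42). Hspa1a, a near-identical copy whose signal the probes may share, had 0.76 and 1.47 at 1 h and 7.0 and 7.02 at 4 h. The 1 h signals of Hspa1b were near the means of the lymphoid, fibroblast and endothelial markers given above, and those of Hspa1a were below them. The size of their differences was therefore not measured. Ankrd37, an ankyrin protein induced by hypoxia, had 4.30 and 4.88 at 1 h, 7.93 and 7.18 at 4 h, and 4.72 and 5.25 with TMX. Its difference was 2.96 ± 0.47 (limma adjusted p 0.441). Because its 1 h signals were near those of Hspa1b, this size was not measured either. Among genes with a mean under 7, Ankrd37 and Hspa1b were at least 4-fold higher in both pairs with 4 h signals of 7 or more, and Hspa1a missed this because its 4 h signal in replicate 1 was just under 7. Probe sets of a single gene did not always move together. A dim one of Ccr2, a chemokine receptor, had 7.96 and 5.48 at 1 h and 4.82 and 1.64 at 4 h. Its brightest one differed by -0.39, and another with a mean of 7 or more by 0.42.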
